A study of Mus musculus with 12 samples.

Results

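The Gimap genes encode GTPases of the immunity-associated protein family, and the 8 members described here (Gimap1, Gimap3, Gimap4, Gimap5, Gimap6, Gimap7, Gimap8 and Gimap9) were picked by symbol, with earlier results of these data known, from the 56748 mouse genes counted in every library. All 8 were counted, and all 8 were among the 18438 genes with enough counts to be tested. Bulk RNA-seq was available for 12 libraries of Lin-Sca+Kit+ (LSK) cells, the fraction of mouse bone marrow that holds stem and early progenitor cells. The donor cells of both groups carried the SCLtTA and BCR-ABL transgenes (double transgenic, DTG), so that the tetracycline transactivator tTA was made under SCL regulatory sequence and switched on human BCR::ABL1, the fusion kinase of chronic myeloid leukaemia, when tetracycline (TET) was absent. DTG bone marrow carrying CD45.2 was transplanted into CD45.1 B6.SJL recipients, aged 8 to 12 weeks and irradiated with 2 doses of 4.25 Gy given 3 h apart, and all recipients drank TET for the first 2 weeks. TET was then withdrawn for 2 weeks in the BCR::ABL1+ group (n = 6), whereas it was continued in the BCR::ABL1- group (n = 6), whose cells therefore carried the same transgenes. CD45.2+ LSK cells were sorted from the recipients.

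GIMAP proteins bind guanine nucleotides and sit on the membranes of organelles such as lysosomes, mitochondria and the endoplasmic reticulum. They are best known from T and B cells, whose survival depends on several of them, and loss of Gimap5 in mice also leads to failure of haemopoietic stem cells. In the mouse genome the genes lie side by side on 1 chromosome, so that neighbouring members can be compared.

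Library totals were 22804754 to 41832868 counts in BCR::ABL1- and 16150817 to 25070105 in BCR::ABL1+ cells, and the mitochondrial share was 0.816 to 1.29% and 2.26 to 2.97%. The spread between libraries was larger in BCR::ABL1+ cells (biological coefficient of variation 33%, compared with 10.9%). The sort markers were present in both groups. Kit stood at 749 CPM in BCR::ABL1- and 412 CPM in BCR::ABL1+ cells. Ly6a, the gene of Sca-1, stood at 34.4 and 44.8 CPM, and Ptprc, the gene of CD45, at 456 and 549 CPM. CPM are counts scaled to the total of the library, adjusted by a normalisation factor for each library (TMM). The labels give all BCR::ABL1- samples as male and all BCR::ABL1+ samples as female, so labelled sex and BCR::ABL1 cannot be told apart. For this model the paper describes pooled donor marrow from mice of both sexes, and recipients of both sexes. The transcripts did not follow the labels. Xist, made from the inactive X chromosome, stood at 3794 to 4425 CPM in the libraries labelled male and 2183 to 3502 CPM in those labelled female, and 4 Y-linked genes summed to 0.08 to 2.3 CPM and 0 to 22.8 CPM. The Y-linked sum was highest in BCR::ABL1+ replicates 2 (22.8 CPM) and 4 (2.55 CPM), in which 12 stromal genes summed to 5471 and 735 CPM against 75.2 to 157.5 CPM in the other libraries. Results are therefore also given without these 2 libraries.

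Of the 8 Gimap genes, 5 were lower in BCR::ABL1+ cells (Gimap1, Gimap5, Gimap6, Gimap7 and Gimap8), none was higher, and Gimap3, Gimap4 and Gimap9 did not pass the test. The fall was 2.08-fold to 3.48-fold in the 5 genes. Across all tested genes, 29.0% were called lower and 30.6% higher in edgeR's quasi-likelihood test with a Benjamini-Hochberg adjusted p under 0.05. A fall of at least 2-fold that passed the test was seen in 5.78% of tested genes, and in the same 5 of 8 Gimap genes. In these 5 every BCR::ABL1+ library lay below every BCR::ABL1- library, which held for 20.6% of tested genes. The median log2 fold change was -1.22 over the 8 Gimap genes and 0.07 over all tested genes. In bulk RNA, fewer cells that express a gene and less RNA per cell cannot be told apart.

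The summed level of the 8 genes was 303, 304, 282, 228, 281 and 215 CPM in BCR::ABL1- replicates 1 to 6 and 97.8, 128, 93.8, 155, 124.5 and 96.9 CPM in BCR::ABL1+ replicates 1 to 6. The groups did not overlap. The mean sum was 2.31-fold higher with TET, 269 CPM ± 38.1 (SD, n = 6), than without it, 116 CPM ± 24.3 (SD, n = 6).

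**Figure D1:**
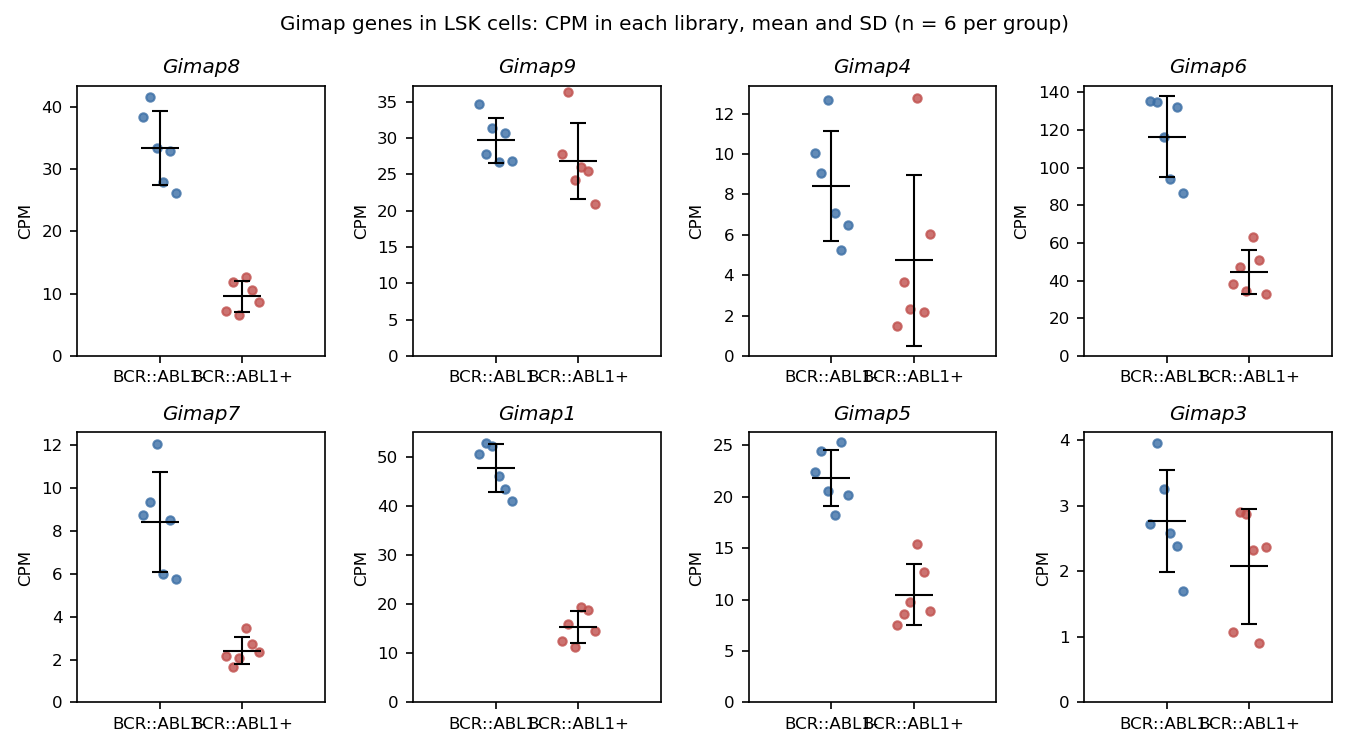
Scaled counts (CPM, linear axis from 0) of each Gimap gene in the 6 BCR::ABL1- (blue) and 6 BCR::ABL1+ (red) libraries; points are libraries, the horizontal bar is the mean and the whiskers are 1 SD. The groups are apart for Gimap8, Gimap6, Gimap7, Gimap1 and Gimap5 and overlap for Gimap9, Gimap4 and Gimap3, where 1 BCR::ABL1+ library of Gimap4 reaches 12.8 CPM.

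Gimap1, which mature T and B cells need to persist, ranged from 41.0 to 52.9 CPM (median 48.4) in BCR::ABL1- and from 11.3 to 19.4 CPM (median 15.3) in BCR::ABL1+ libraries. The groups were apart. Its fall was 3.09-fold (95% confidence interval 2.56 to 3.73, log2 fold change -1.63 ± 0.13 (SE), edgeR adjusted p = 1.38e-07). The antisense gene Gimap1os overlaps 36.0% of the Gimap1 exon bases on the opposite strand, and it was also lower (5.86 and 2.88 CPM, log2 fold change -1.02 ± 0.22 (SE), edgeR adjusted p = 0.000956). The strand setting of the counting is not given in the sources used here, so reads of the overlap cannot be told apart between both genes.

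Gimap5, the member whose loss impairs T cells and stem cells, ranged from 18.2 to 25.4 CPM (median 21.5) in BCR::ABL1- and from 7.54 to 15.5 CPM (median 9.31) in BCR::ABL1+ libraries. The groups did not overlap, and BCR::ABL1+ replicate 4 came nearest to the BCR::ABL1- range. Gimap5 was 2.08-fold lower (95% confidence interval 1.64 to 2.64, log2 fold change -1.06 ± 0.16 (SE), edgeR adjusted p = 5.4e-05). Gimap3 is its closest relative in the family, and 190 stretches of 50 bases occur in the transcripts of both genes, 7.5% of those of Gimap3 and 4.5% of those of Gimap5. The treatment of reads that match several places is not given in the sources used here, so counts of these 2 genes are uncertain to that extent.

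Gimap3 ranged from 1.70 to 3.97 CPM (median 2.65) in BCR::ABL1- and from 0.90 to 2.91 CPM (median 2.35) in BCR::ABL1+ libraries. It was the lowest member, with 19 to 111 counts per library, and the groups overlapped. The difference did not pass the test, and its interval ran from -1.06 to 0.22 on the log2 scale (log2 fold change -0.42 ± 0.30 (SE), edgeR adjusted p = 0.243), so that a fall of the size of that of Gimap5 lies at its edge.

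Gimap6, which takes part in autophagy, was the most abundant member. It ranged from 86.5 to 135 CPM (median 124) in BCR::ABL1- and from 33.1 to 63.2 CPM (median 42.7) in BCR::ABL1+ libraries, with no overlap. The fall was 2.61-fold (95% confidence interval 2.05 to 3.32, log2 fold change -1.38 ± 0.16 (SE), edgeR adjusted p = 4.97e-06).

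Gimap7, a GTPase that is activated by dimerisation, ranged from 5.77 to 12.1 CPM (median 8.63) in BCR::ABL1- and from 1.67 to 3.47 CPM (median 2.26) in BCR::ABL1+ libraries. All 6 BCR::ABL1+ libraries lay below the BCR::ABL1- range. Gimap7 fell 3.48-fold (95% confidence interval 2.52 to 4.80, log2 fold change -1.80 ± 0.22 (SE), edgeR adjusted p = 6.2e-06).

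Gimap8, a large family member with more than 1 GTPase domain, ranged from 26.2 to 41.6 CPM (median 33.2) in BCR::ABL1- and from 6.62 to 12.7 CPM (median 9.59) in BCR::ABL1+ libraries. The groups were again apart. Its fall was 3.47-fold (95% confidence interval 2.71 to 4.45, log2 fold change -1.80 ± 0.17 (SE), edgeR adjusted p = 5.8e-07). Gimap7 and Gimap8 had the lowest log2 fold changes of the 8 members, within the interval of Gimap1 (-1.90 to -1.36), and 1.23% and 1.24% of tested genes were lower still.

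Gimap4, which speeds the death of T cells once apoptosis has begun, varied most between libraries. Its level was 10.1, 9.04, 12.7, 7.06, 5.22 and 6.49 CPM in BCR::ABL1- replicates 1 to 6 and 1.47, 3.68, 2.33, 12.8, 2.18 and 6.02 CPM in BCR::ABL1+ replicates 1 to 6. BCR::ABL1+ replicate 4 was thus just above the BCR::ABL1- range, replicate 6 was within it, and the other 4 were below it. Over all libraries Gimap4 did not pass the test (log2 fold change -0.83 ± 0.43 (SE), edgeR adjusted p = 0.112). Without BCR::ABL1+ replicate 4 it did (log2 fold change -1.42 ± 0.34 (SE), edgeR adjusted p = 0.00253), and likewise without replicates 2 and 4 (log2 fold change -1.49 ± 0.35 (SE), edgeR adjusted p = 0.00176). Replicate 4 was also the highest BCR::ABL1+ library for 6 of the 8 members (Gimap1, Gimap4, Gimap5, Gimap6, Gimap7 and Gimap8), and its stromal sum (735 CPM) was above that of every library except BCR::ABL1+ replicate 2. Its Y-linked sum (2.55 CPM) was close to that of BCR::ABL1- replicate 1 (2.3 CPM). The part of other cells in these values was not tested.

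Gimap9 stood at 34.6, 27.8, 31.4, 26.7, 30.7 and 26.8 CPM in BCR::ABL1- replicates 1 to 6 and at 27.8, 36.4, 24.3, 25.9, 25.4 and 21.0 CPM in BCR::ABL1+ replicates 1 to 6. The highest value of all 12 libraries was in BCR::ABL1+ replicate 2, and the ranges overlapped. The mean was 29.7 CPM ± 3.13 (SD, n = 6) with TET and 26.8 CPM ± 5.21 (SD, n = 6) after its withdrawal. The difference did not pass the test (log2 fold change -0.15 ± 0.12 (SE), edgeR adjusted p = 0.294). Its 95% interval, -0.39 to 0.10, ended above those of the 5 called members, which reached up to -0.71. Without BCR::ABL1+ replicate 2 Gimap9 was called lower at a small size (log2 fold change -0.26 ± 0.09 (SE), edgeR adjusted p = 0.0175), and without replicates 2 and 4 likewise (log2 fold change -0.28 ± 0.10 (SE), edgeR adjusted p = 0.0203). Without these 2 libraries 7 of 8 members were lower, all but Gimap3 (log2 fold change -0.65 ± 0.32 (SE), edgeR adjusted p = 0.089), and 32.0% of all tested genes were.

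CPM follow transcript length, so levels of different members were compared as CPM per kb of exon. In BCR::ABL1- cells Gimap6 was highest with 33.3 ± 6.20 CPM per kb (SD, n = 6), followed by Gimap9 with 18.1 ± 1.91, Gimap1 with 15.5 ± 1.61 and Gimap8 with 9.03 ± 1.60 CPM per kb. Gimap5, Gimap4, Gimap7 and Gimap3 followed with 5.27, 4.59, 3.62 and 1.07 CPM per kb. Within this order the ranges over libraries overlapped between Gimap9 and Gimap1, between Gimap5 and Gimap4 and between Gimap4 and Gimap7, and the other neighbours were apart. In BCR::ABL1+ cells Gimap9 was first with 16.3 ± 3.17 CPM per kb (SD, n = 6) and Gimap6 second with 12.8 ± 3.31 CPM per kb, with ranges that overlapped. Gimap1 followed with 5.01 CPM per kb, Gimap8, Gimap4 and Gimap5 lay together at 2.59, 2.58 and 2.53 CPM per kb with overlapping ranges, and Gimap7 and Gimap3 were lowest at 1.04 and 0.81 CPM per kb.

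**Figure D2:**
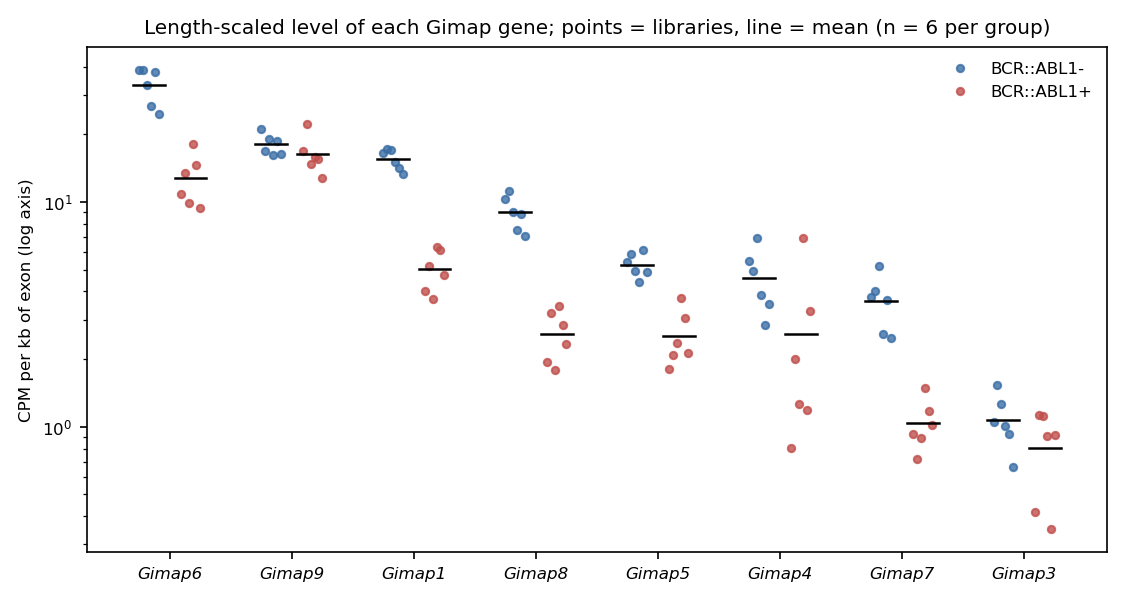
Level of each Gimap gene as CPM per kb of exon (log axis) in the 6 BCR::ABL1- (blue) and 6 BCR::ABL1+ (red) libraries; points are libraries and lines are group means. Gimap6 leads in BCR::ABL1- cells at 33.3 CPM per kb, and Gimap9 is at 18.1 and 16.3 CPM per kb in blue and red.

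The make-up of the Gimap reads differed accordingly. Gimap6 gave 40.3 to 47.1% of the summed CPM with TET and 34.1 to 41.1% after its withdrawal. Gimap9 gave 9.14 to 12.5% and 16.7 to 28.5%, with no overlap. The shares of Gimap8 (11.7 to 13.7% and 7.05 to 9.24%) and Gimap1 (15.5 to 20.2% and 12.1 to 15.1%) were lower in all BCR::ABL1+ libraries. The ratio of Gimap6 to Gimap9 CPM was 3.23 to 4.85 in BCR::ABL1- and 1.30 to 2.44 in BCR::ABL1+ libraries. By contrast, the ratio of Gimap1 to Gimap6 overlapped between the groups (0.33 to 0.49 and 0.31 to 0.44), as did that of Gimap6 to Gimap5 (4.28 to 6.05 and 3.55 to 5.47). These ratios are a description, since Gimap9 was singled out after its values were seen.

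**Figure D3:**
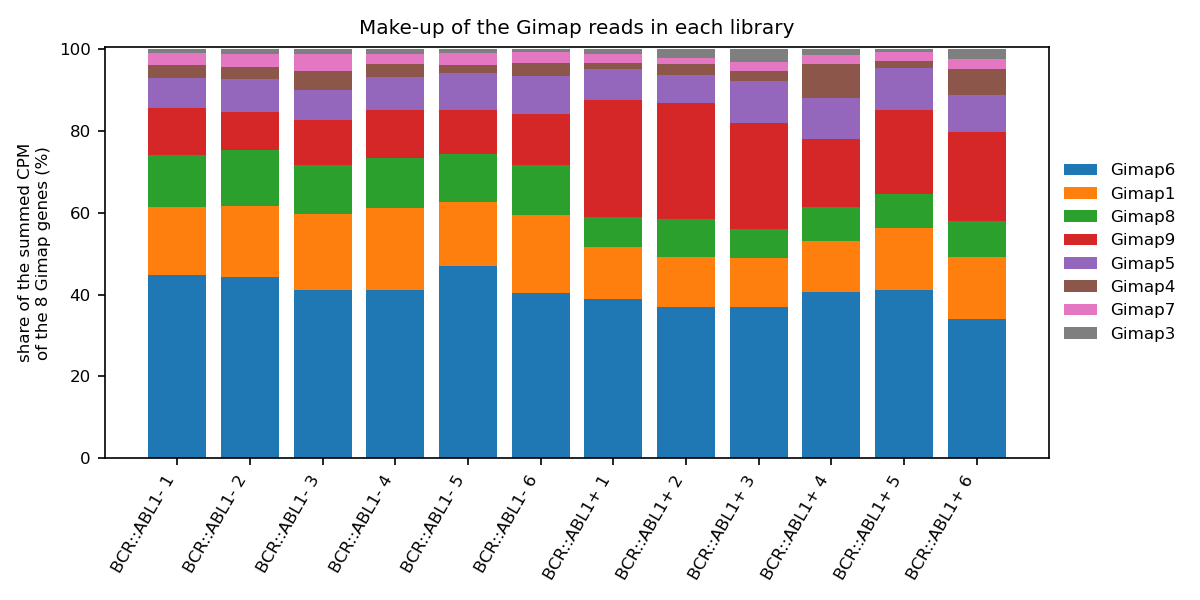
Share of each Gimap gene in the summed CPM of the 8 genes (%, stacked to 100) in each of the 12 libraries. The Gimap9 share is 9.14 to 12.5% on the left, BCR::ABL1-, and 16.7 to 28.5% on the right, BCR::ABL1+, and the Gimap4 share is largest, 8.22%, in BCR::ABL1+ replicate 4.

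The members also varied together within groups. After subtraction of each group's mean log2 CPM, over 12 libraries, Gimap8 followed the mean of the other 7 members with Pearson's r = 0.81 (Spearman's rho = 0.83), Gimap1 with r = 0.74 (rho = 0.76), Gimap6 with r = 0.71 (rho = 0.64) and Gimap4 with r = 0.69 (rho = 0.64). Gimap5 and Gimap7 had r = 0.60 each (rho = 0.50 and 0.54). Gimap3 (r = 0.34, rho = 0.21) and Gimap9 (r = 0.15, rho = 0.34) followed least. Pairs of members reached r = 0.89 for Gimap8 and Gimap1 and 0.88 for Gimap8 and Gimap6, which lie apart in the cluster, whereas Gimap8 and its neighbour Gimap9 had r = 0.44. The points share library, depth and scaling, and no p is given.

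Among 13732 other genes of at least 1 log2 CPM, those most like the mean of the 8 members after subtraction of group means were Zfp532 (r = 0.90, rho = 0.88), Pf4 (r = 0.89, rho = 0.91), Rbm47 (r = 0.88, rho = 0.80), Agpat3 (r = 0.88, rho = 0.84) and Trim34a (r = 0.87, rho = 0.85). Without subtraction they were Zfp532 (r = 0.98, rho = 0.99), Trim34a (r = 0.98, rho = 0.92), Pf4 (r = 0.98, rho = 0.99), Agpat3 (r = 0.98, rho = 0.94) and Pak4 (r = 0.98, rho = 0.95). These genes were picked as the highest of 13732 over 12 libraries. High r values are expected from such a choice alone, and no p is given. Zfp532 encodes a zinc finger protein and Pf4 a platelet chemokine. Without subtraction the ranking favours genes that fall with the members, so falls of genes picked by it are not a separate result. Zfp532 fell from 19.7 to 7.94 CPM, Pf4 from 41.7 to 5.20 CPM and Agpat3 from 38.2 to 16.4 CPM. Rbm47, picked only after subtraction, was at 19.0 and 20.4 CPM and did not pass the test (edgeR adjusted p = 0.47). Rbm47 thus had a like course within groups and no called difference between them.

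In gene order the cluster runs Gimap8, Gimap9, Gimap4, Gimap6, Gimap7, Gimap1, Gimap5 and Gimap3 in the GENCODE M21 annotation, which was used for order and length only. Over all libraries Gimap9 and Gimap4, which did not pass the test, lie between Gimap8 and Gimap6, which did. Without BCR::ABL1+ replicates 2 and 4, left out after the data were seen, both passed, Gimap9 with a log2 fold change of only -0.28. These libraries held the highest BCR::ABL1+ values of Gimap9 (replicate 2) and Gimap4 (replicate 4). The 7 lower genes were then 1 run from Gimap8 to Gimap5, beside 32.0% of all tested genes called lower. This run is a description, since it depends on the libraries left out. A read-through transcript model, Gm28053, shares exons with Gimap7, Gimap1 and Gimap5 (3.5, 6.4 and 3.7% of their exon bases) and was lower too (33 to 79 and 0 to 33 counts, log2 fold change -1.88 ± 0.53 (SE), edgeR adjusted p = 0.0073).

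Of the 5 nearest protein-coding genes on each side, 5 had enough counts to be tested. On the Gimap8 side Repin1, a zinc finger gene, was at 81.2 and 40.2 CPM (log2 fold change -1.01 ± 0.11 (SE), edgeR adjusted p = 2.87e-06), and Zfp775 and AI854703 were lower with log2 fold changes of -0.49 and -0.82. On the Gimap3 side Tmem176b was slightly lower (146 and 122 CPM, log2 fold change -0.26 ± 0.08 (SE), edgeR adjusted p = 0.00847), and Tmem176a did not pass the test (93.8 and 83.5 CPM, edgeR adjusted p = 0.0608). The other 5 (Gm45021, Gm44965, Aoc1, 1600015I10Rik and Doxl2) had too few counts. Repin1 thus came close to Gimap5, the least changed of the 5 called members at -1.06, and their intervals overlapped (-1.25 to -0.77 and -1.40 to -0.71).

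**Figure D4:**
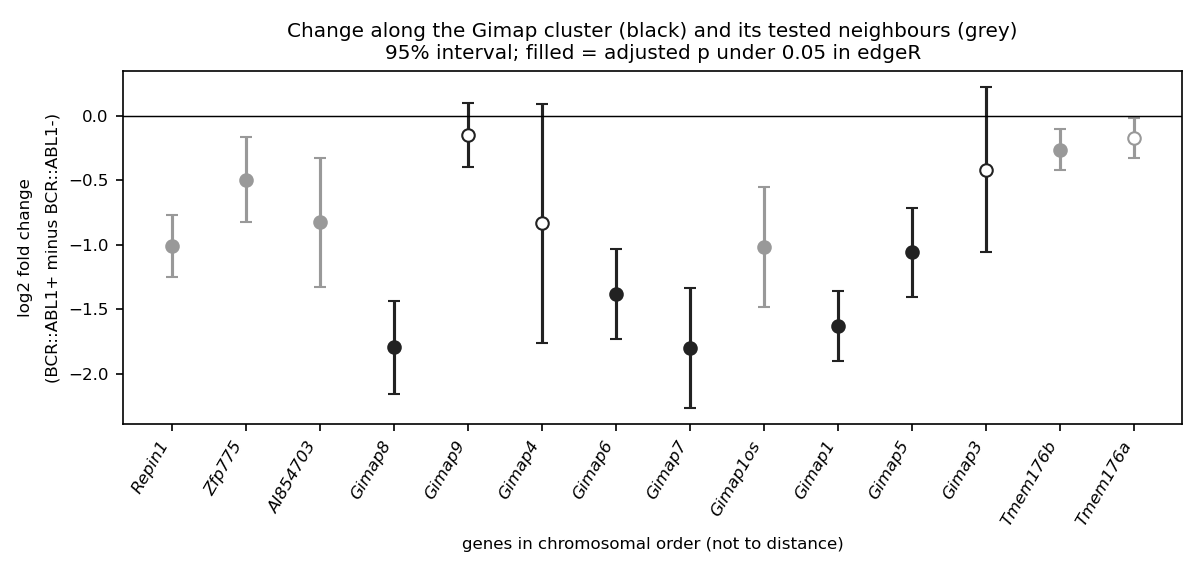
Log2 fold change (BCR::ABL1+ minus BCR::ABL1-) with its 95% interval for the Gimap genes (black) and Gimap1os and the tested neighbours (grey) in chromosomal order, not to distance; filled points passed the test. Gimap8, Gimap6, Gimap7, Gimap1 and Gimap5 lie between -1.06 and -1.80, Gimap9 lies at -0.15, and Tmem176b and Tmem176a lie near 0.

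Promoter sequence of all 8 members, 250 bases before each start, was read from the RefSeq table of GRCm38.p6, with 9 windows since Gimap8 has 2 starts. Shown are Gimap6 and Gimap1, the 2 most abundant of the members that fell, Gimap5, and Gimap9, which did not pass the test. Capitals mark the letters GGAAGT, the core of ETS family sites, and TGTGGT, the core of RUNX sites, on either strand. The windows are chr6:48708245-48708494 (minus strand), chr6:48738797-48739046, chr6:48745947-48746196 and chr6:48675885-48676134 (plus strand) in the order given.
Gimap6: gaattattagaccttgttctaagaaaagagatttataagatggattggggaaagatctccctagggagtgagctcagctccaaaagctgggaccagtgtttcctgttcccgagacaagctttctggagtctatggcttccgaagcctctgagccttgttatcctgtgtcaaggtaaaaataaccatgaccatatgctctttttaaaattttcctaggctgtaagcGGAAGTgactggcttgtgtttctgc
Gimap1: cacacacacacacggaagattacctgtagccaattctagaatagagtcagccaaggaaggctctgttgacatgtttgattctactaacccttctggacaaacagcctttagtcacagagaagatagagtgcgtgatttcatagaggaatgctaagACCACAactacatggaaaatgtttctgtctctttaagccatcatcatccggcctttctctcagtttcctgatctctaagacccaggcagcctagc
Gimap5: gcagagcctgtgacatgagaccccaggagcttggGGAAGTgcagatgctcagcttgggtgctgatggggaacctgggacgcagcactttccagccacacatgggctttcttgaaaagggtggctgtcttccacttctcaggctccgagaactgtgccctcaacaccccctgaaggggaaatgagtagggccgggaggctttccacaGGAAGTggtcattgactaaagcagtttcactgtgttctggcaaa
Gimap9: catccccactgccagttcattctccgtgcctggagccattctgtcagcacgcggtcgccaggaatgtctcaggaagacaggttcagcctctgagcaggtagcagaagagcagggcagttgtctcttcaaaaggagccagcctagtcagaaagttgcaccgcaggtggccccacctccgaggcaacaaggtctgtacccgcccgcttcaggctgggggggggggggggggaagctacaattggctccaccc

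The Gimap9 window was the richest in G and C, with 61.2% against 43.6 to 55.6% in the windows of the other members and a median of 52.4% over 32851 promoters. It held 8 CpG dinucleotides, whereas the other members' windows held 1 to 3 and the median promoter 6. GGAAGT occurred in 2 of the 9 windows, once in Gimap6 and at 2 places in Gimap5, and in 19.7% of all promoters. TGTGGT occurred in 3 windows (Gimap1, Gimap4 and Gimap7) and in 14.0% of all promoters. For GATAA, the core of GATA sites, the count was 2 of 9 windows (22.6% of all promoters), for the STAT motif TTCNNNGAA 2 of 9 (7.0%), for the E-box CAGNTG 4 of 9 (44.8%), and for the interferon-stimulated response element 0 of 9 (3.0%). With 9 windows these counts are a description. No letters searched were shared by all 5 members that fell.

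Genes related to the Gimap family by function or by cell type were read from the same fit. Of 18 other immune GTPases, chiefly the interferon-inducible guanylate-binding, IRG and Mx proteins, 16 were lower, 1 (Gbp3) was higher and 1 (Ifi47) did not pass the test, with a median log2 fold change of -1.16. Mx1 fell from 8.18 to 1.5 CPM (log2 fold change -2.45), Gbp4 from 5.70 to 1.17 CPM (-2.29), Gbp8 from 3.73 to 0.78 CPM (-2.27) and Mx2 from 4.84 to 1.07 CPM (-2.18). Of 19 transcription factors listed for lymphoid cells 14 were lower and none higher. Among the lower were Ikzf3 (4.23 and 1.11 CPM), Tox (21.7 and 6.35 CPM), Gata3 (13.8 and 6.00 CPM) and Klf2 (11.2 and 5.50 CPM). The 14 also hold Tal1 and Runx1, which are not confined to lymphoid cells. Of 15 genes of lymphoid priming 12 were lower and 1 higher, with falls of Ly6d, Rag1, Dntt, which encodes the terminal transferase of early lymphoid cells (334 and 91.1 CPM), and Blnk. These counts stand beside 29.0% of tested genes called lower. Without BCR::ABL1+ replicates 2 and 4, left out after the data were seen, the counts of lower genes were 16, 15 and 13. In that setting 32.0% of all tested genes were called lower.

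The CD3 genes, which mark T cells, were low. The genes Cd3d, Cd3e and Cd3g together came to 0.60 to 1.90 CPM per BCR::ABL1- library and 0 to 1.87 CPM per BCR::ABL1+ library. Of 22 T and NK cell markers 18 were tested, 9 were lower, including Lck (23.2 and 11.9 CPM) and Lat (22.1 and 13.5 CPM), and 3 were higher (29.0% and 30.6% of all tested genes), including Gzmb (4.10 and 41.5 CPM) and Nkg7 (82.7 and 121 CPM). Their sum was 131.6 to 163.7 CPM (median 154) with TET and 163.5 to 252 CPM (median 181) after its withdrawal, while the median log2 fold change of the tested markers was -0.75. Nkg7 and Gzmb were the most abundant of these markers in BCR::ABL1+ cells. Of 13 B cell markers 4 were lower, among them Cd22, Pax5 and Blk, a share near the 29.0% of all tested genes. Without BCR::ABL1+ replicates 2 and 4 the count was 9 of 13, with 32.0% of all tested genes called lower. The B cell markers summed to 519 to 1001 CPM with TET and 31.1 to 512 CPM after its withdrawal, and none was at 0 in all libraries. The part of B cells in the Gimap levels was not tested.

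**Figure D5:**
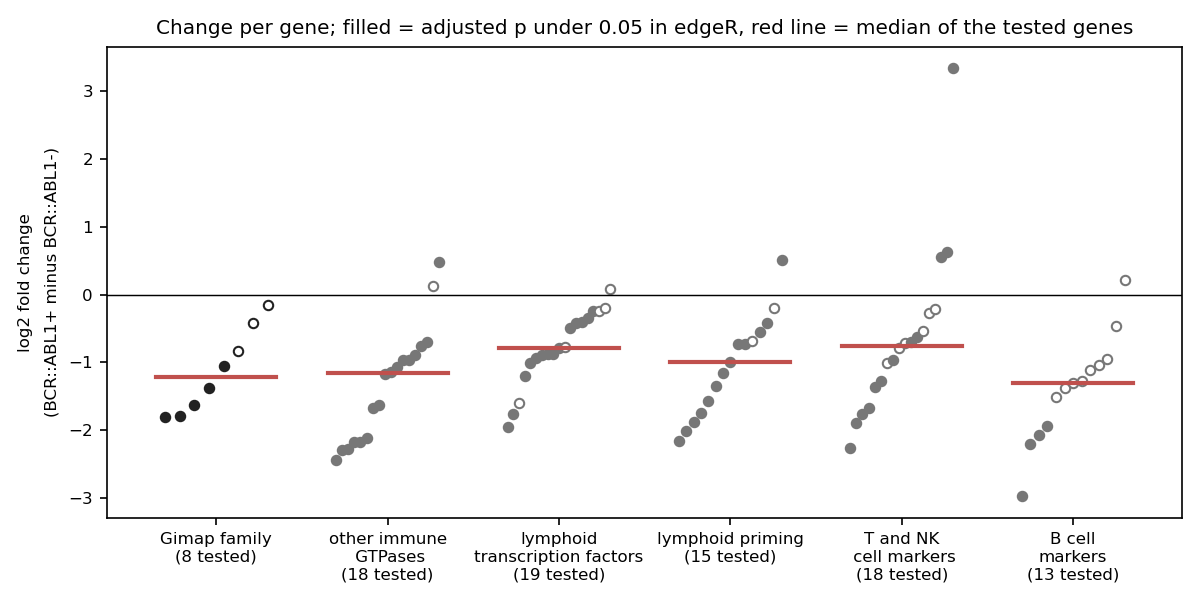
Log2 fold change (BCR::ABL1+ minus BCR::ABL1-) of each tested gene in the Gimap family and in 5 related gene lists; filled points passed the test and the red line is the median of the list. The medians are -1.22 for the Gimap family, -1.16 for other immune GTPases and -1.30 for B cell markers, and Gzmb at 3.34 stands far above the other T and NK cell markers.

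Of 5 genes whose proteins are reported to work with GIMAPs, 2 were lower and 1 was higher, beside 29.0% and 30.6% of all tested genes. These counts are a description of RNA, and the proteins were not measured. Bcl2, which protects cells from apoptosis, was lower (224 and 144 CPM, log2 fold change -0.64 ± 0.08 (SE), edgeR adjusted p = 7.38e-06), as was the kinase gene Gsk3b (180 and 127 CPM, log2 fold change -0.50). Gabarapl2, whose product carries GIMAP6 to autophagosomes, was higher (25.7 and 36.5 CPM, log2 fold change 0.51 ± 0.10 (SE), edgeR adjusted p = 0.000351). Bcl2l1 (28.0 and 22.2 CPM) and Bax (16.8 and 18.6 CPM) did not pass the test.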

How the data were processed

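Bulk RNA-seq of sorted CD45.2+ LSK cells was analysed for 6 BCR::ABL1+ and 6 BCR::ABL1- libraries, grouped by the labels. The deposited values, as the authors left them, are unnormalised counts for Ensembl genes, 1 table per library. The submitters' processing notes name FastQC 0.11.9, fastp 0.23.2, STAR 2.7.10a, featureCounts 2.0.1, DESeq2 1.36.0 and the mouse build GRCm39, whereas the methods text names Trim Galore!, HISAT2 and featureCounts with a human build; annotation release, strand setting and the handling of reads with several matches are not given in the sources used here. Human BCR::ABL1 was not counted.

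Counts were fitted with edgeR 4.0.16 in R 4.3.3 (quasi-likelihood test, TMM factors, filterByExpr, no covariate), with Benjamini-Hochberg adjustment over 18438 genes and a threshold of 0.05. Counts were also simulated with the same spread in both groups and few changed genes. There 69 of 109 genes changed by 1 log2 unit, 80 of 85 changed by 2 and 5 of 17979 unchanged genes were called (18173 genes). These rates do not carry over to the real libraries, whose spread differed between groups (biological coefficient of variation 10.9% and 33%) and in which far more genes were called. CPM use TMM factors, and log2 CPM a prior count of 2. Symbols were matched for 52073 identifiers. Exon lengths, gene order and overlaps came from GENCODE M21 and promoters from RefSeq, both GRCm38, which is not the build of the counts. Python 3.11.15 with pandas 2.3.3, numpy 2.4.6, scipy 1.17.1 and matplotlib 3.10.9 was used for descriptions. Alternatives were DESeq2 1.42.0, other scalings, no filter, libraries left out and a replicate block.

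Named genes were the 8 members, any other gene with a Gimap symbol, the read-through gene Gm28053 (added after its values were seen), the 5 nearest coding genes on each side, the 5 genes most like the members on each scale and up to 4 called genes of at least 1 log2 CPM with the largest change per list; Gbp3, Ifi47 and Blk were named after their values were seen, and the sort markers, CD3 genes, Xist and GIMAP partners as checks. Some genes that these rules pick are not reported here. The members and lists were chosen with earlier results of these data known, and the motifs after the promoters were seen. No 2 libraries agreed within sampling noise (lowest chi-square per degree of freedom 4.07).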

Additional observations from a re-analysis of the deposited data

How the results depend on the processing

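Gimap1, Gimap5, Gimap6, Gimap7 and Gimap8 were called lower in all 19 alternatives with a test, and no member was called higher in any. The count of called members was 5 with DESeq2, upper-quartile factors, library size only, no filter on low counts and without replicate 6 of both groups, 5 to 6 with each library left out in turn, and 7 without BCR::ABL1+ replicates 2 and 4. The log2 fold changes of Gimap6 ran from -1.57 to -1.31 and those of Gimap9 from -0.28 to -0.07. Gimap3 was called in 0, Gimap4 in 3 and Gimap9 in 2 of the 19 alternatives. The count of all called genes was 10976, and 9975 to 12130 over the alternatives. The share of all genes called lower was 16.5% with DESeq2 and 17.2% with no filter, each over 34929 genes. In the other alternatives it was 25.8 to 32.0%, and in the main fit 29.0%. With the replicate number as a block (replicate block), 6 members were called, Gimap4 being added (log2 fold change -1.14, edgeR adjusted p = 0.0473), and 9975 genes. Same-numbered libraries did not deviate together over all genes (r = -0.125 to 0.068), and of the numbers only 1 correlated best with its own. Pairing by number was thus not seen, but larger differences between libraries could hide it. In replicate 6 alone, 1 library per group and no test, the difference of log2 CPM was -1.48 for Gimap1, -1.18 for Gimap5, -1.39 for Gimap6, -1.26 for Gimap7, -1.59 for Gimap8, -0.11 for Gimap4, -0.35 for Gimap9 and 0.46 for Gimap3, and the cause of the opposite sign of Gimap3 was not tested. Changing the prior count to 0.5 moved no mean log2 CPM of a member by more than the SD between libraries.

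The labels do not say that replicates are separate animals, so p-values measure the spread between these libraries. For this model the paper describes donor marrow pooled from several DTG mice, so that spread need not include the spread between donors. Depth limits Gimap3 most, with 19 to 68 counts per BCR::ABL1+ library. The numbers in the names of the deposited libraries run by group apart from replicate 6, so over the other libraries anything that they stand for and BCR::ABL1 cannot be told apart.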

Other observations

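Lists of other cell types moved in several directions beside the Gimap genes. Each count below stands beside 29.0% of all tested genes called lower and 30.6% called higher. Of 12 genes of long-term haemopoietic stem cells 10 were lower in BCR::ABL1+ cells and none higher, among them Vwf (63.7 and 10.1 CPM), Tek (19.9 and 6.37 CPM) and Hlf (349 and 112 CPM). All 10 tested of 11 megakaryocyte and erythroid genes were lower, among them the haemoglobin genes Hba-a1 and Hbb-bs, Pf4 and Klf1. Of 19 endothelial markers 15 were tested, 7 were lower, such as Tie1 (73.3 and 19.9 CPM), Robo4 and Eng, and Flt1 was higher. The endothelial sum was 415 to 474 CPM with TET and 254 to 304 CPM after its withdrawal. The part of any of these cells in the Gimap levels was not tested.

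Of 13 granulocyte and monocyte genes 6 were higher, including Ms4a3 and Ctsg (187 and 1393 CPM), and 5 were lower, including Ngp and Camp. In BCR::ABL1- libraries Ngp ranged widely, from 16.6 to 528.5 CPM (median 89.3), and Camp from 4.90 to 170.9 CPM (median 24.9). In BCR::ABL1+ libraries they ranged from 0.99 to 56.5 CPM (median 10.1) and from 0.77 to 11.4 CPM (median 6.00), so the groups overlapped for both. Of 10 basophil and mast cell genes 6 were higher, including Tpsb2, Cma1, Fcer1a and Cpa3, and 1 lower. Of 12 stromal genes 8 were tested and 4 were higher (Spp1, Col3a1, Col1a1 and Col1a2), but without BCR::ABL1+ replicates 2 and 4 only 1 was higher and 6 were lower. Of the 5 sort and LSK markers, Cd48 (98.3 and 210.3 CPM) and Ptprc were higher and Kit and Cd34 were lower.

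In 22 sets of 6 values (the 8 members, Gimap1os, Gm28053 and the summed level, in each group) no library met Dixon's criterion for a value that stands apart, where chance alone would give about 1.1.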
